A study of Mus musculus with 13 samples.

Results

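Intronic insertions of a Sleeping Beauty transposon were examined in F123 cells, a mouse embryonic stem cell line from a cross of Castaneus and 129 mice. An insertion counted as intronic when it lay on chromosomes 1 to 19 inside a protein-coding gene spanning 10 to 500 kb, in no annotated exon and over 1000 bp from every protein-coding gene start (GENCODE M21, GRCm38). The rule took 10056 of the 30187 autosomal sites of 2 cell pools, and the 12 libraries analysed together held 31949 sites. A site is a run of deposited positions within 10 bp of each other, placed at the base with the most reads. Neither orientation nor position within the gene entered the rule beyond the 1000 bp margin.

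The Sleeping Beauty transposase cuts the element out of 1 place and joins it to another, nearly always a TA dinucleotide. Moves from a chromosomal donor often end near the donor, which is called local hopping, and the element is known for only a weak preference for genes. Within an intron the orientation of an element decides whether its promoters, splice sites and polyadenylation signals face along or against the host transcript, and vectors that trap or overexpress genes make use of that. The first intron of a gene is often long and holds regulatory elements, and chromatin near a gene start is typically more open than deep in the gene body.

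Each library came from purified genomic DNA on which T7 RNA polymerase transcribed out of a promoter in the transposon, and the RNA was sequenced to find the junction with the genome. In the remobilized pool, wild-type cells carried transposons that Sleeping Beauty expression had moved from their place in a parental line. In the plasmid pool, also wild type, the elements came from transfected multi-copy plasmids. A wild-type control held no transposon, 9 clonal lines of rad21-dTag genotype each stem from 1 cell, and the parental line was not analysed here. All cells were grown without serum with 2i and LIF, which hold them in the naive state.

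Each group was 1 library, so every test below compares libraries and covers counting error only, with the site as the unit. Insertions of 1 cell family can share a source, and the spread between cultures is unknown. The pools and the control shared a sequencing run, and the clones had another. Placed reads numbered 63031 of 78338 in the plasmid pool, at 31146 sites, and 2116 of 2619 in the remobilized pool, at 746 sites. The control had 1 read and no placed read. The reads carry no molecular identifiers, so they are not independent molecules.

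The bases at the insertions could be read for 9 of the plasmid pool's intronic sites, those inside 1 of 32851 RefSeq promoter windows (250 bases before to 50 after a RefSeq gene start, GRCm38.p6). No intronic site of the remobilized pool lay in such a window. These windows belong to RefSeq starts over 1000 bp from every GENCODE protein-coding start, several of them starts of uncharacterised genes inside the intron. The sequences are shown because they let the mapped base be set against the TA target. Each is 30 bases of the plus strand, 5′ to 3′, with the mapped base right after the first 15 bases, and capitals mark a TA that ends on the mapped base.
Homer1, chr13:93307970-93307999: tgcctgttaggtaaTAtatcctaatgcggc
Arhgap28, chr17:67951024-67951053: gatctcttgtgataTAgaagcgtttctctc
Gja5, chr3:97073965-97073994: ttcaagtgaggataTActtacaaaatcgtt
Klhl32, chr4:24669986-24670015: aagaatgtttgactTAttatgagttctgac
Sik3, chr9:46079768-46079797: ggtacacatacatgTAtgagtgtgtgtgtg
Filip1, chr9:79927409-79927438: tggaaagcgtaagaTAaatggaagcgaagt
Dnase2b and Uox, chr3:146596907-146596936: tgtctttaagggaaTAacttctaaccacta
Srgn, chr10:62507881-62507910: agaaagttgaaaaaaacaacaactgttcat
Mrvi1, chr7:110946227-110946256: agctattccagaagagaaacatttcagctc

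The mapped base closed a TA at 7 of the 9 sites, 77.8% (95% exact Clopper-Pearson interval 40.0% to 97.2%). Of all positions in the 32851 windows, 3.81% do. TA reads the same on both strands, and the share was 2 of 3 for sites on the plus strand and 5 of 6 for sites on the minus strand. In Srgn, which encodes the proteoglycan serglycin, and in Mrvi1, which encodes a target of cGMP kinase, no TA lay within 2 bases, although TA comes that close to 20.8% of window positions. The Srgn site had 1 read and the Mrvi1 site had 2. Homer1, a scaffold gene of the postsynapse, was hit 8.35 kb from its start in intron 1 on the strand opposite to the gene, with 1 read. Gja5, which encodes a connexin, was hit in intron 3 on its own strand with 3 reads.

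Intronic sites were counted as a share of all autosomal sites of each pool. In the plasmid pool they were 9795 of 29460, 33.2% (32.7% to 33.8%), and in the remobilized pool 261 of 727, 35.9% (32.4% to 39.5%). The difference of 2.65 percentage points did not pass Fisher's exact test (two-sided p = 0.141). Without host genes that another gene overlaps on the other strand it was 4.91 points (Fisher's exact p = 0.000303), and with a margin of 5000 bp around gene starts it was -1.70 points (p = 0.348). With at least 5 reads a site it was 8.31 points (Fisher's exact p = 0.0845).

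Support per site was low in both pools. The median was 2 reads, and 44.1% of the plasmid pool's and 41.8% of the remobilized pool's intronic sites had 1 read. At least 10 reads were found at 67 sites of the plasmid pool and 9 of the remobilized pool, with maxima of 45 and 22. Some sites with 1 read may come from misread or misplaced sequence, so the main shares are also given at higher read minimums where a call ended there.

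The best supported site of the plasmid pool lay in intron 4 of Nup93, a scaffold subunit of the nuclear pore, at chr8:94266272, with 45 reads on the strand of the gene. Edc3, which enhances mRNA decapping, followed with 36 reads at chr9:57733333 in intron 4, also on the gene's strand. Chl1, a neural adhesion molecule, had 35 reads at chr6:103649271 in intron 3, opposite to the gene. Pi4ka, a lipid kinase, had 23 reads opposite to the gene in intron 30, and Polr3b, a subunit of RNA polymerase III, had 19 reads on its strand in intron 7. Thus the sites with most reads faced both ways and lay deep in their genes as well as near the start.

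The best supported remobilized site was in intron 2 of Cbx3, which encodes the heterochromatin protein HP1 gamma, at chr6:51473445, with 22 reads on the gene's strand. Dcp1b, a decapping cofactor, had 15 reads at chr6:119188881 in intron 3, opposite to the gene. Snx10, a sorting nexin of endosomes, had 13 reads at chr6:51527938 in intron 1 on the gene's strand. Lin52, a subunit of the MuvB complex of cell-cycle gene regulators, had 12 reads opposite to the gene in intron 4. Chromosome 6 had 3 of these 4 sites, and it held 32.6% of the pool's intronic sites (85 of 261) against 5.54% (543 of 9795) in the plasmid pool. It is set apart below for that reason, which comes from the data and not from the labels.

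The sites of the pools departed from equal orientation in opposite directions. In the plasmid pool 4695 of 9709 sites lay on the strand of the host gene, 48.4% (47.4% to 49.4%), and 5014 on the opposite strand (two-sided exact binomial test against 50%, p = 0.00125, Benjamini-Hochberg adjusted over the 2 pools 0.00250). Among remobilized sites 150 of 261 lay on the gene's strand, 57.5% (51.2% to 63.5%), and 111 on the opposite strand (exact binomial p = 0.0185, adjusted 0.0185). The shares differed by 9.11 percentage points between the pools (odds ratio 1.44, two-sided Fisher's exact p = 0.00385). The difference was 17.9 points without genes overlapped on the other strand (Fisher's exact p = 4.04e-05) and 18.99 points with at least 5 reads a site (p = 0.0115). It did not pass with at least 2 reads (7.44 points, Fisher's exact p = 0.0836) or at least 10 reads (8.62 points, p = 0.718), and at 5 reads neither pool's own share passed (adjusted exact binomial p = 0.0750 for each). Of the plasmid pool, 86 sites whose host genes lie on both strands were left out.

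The meaning of strand in the deposited positions is not stated in the labels. For all sites of the clones, 34 of 34 further positions on the same strand within 50 bp of a site's best supported position lay downstream of it by that strand. The strand therefore runs from the junction into the genome there. In the pools 293 of 519 such positions (56.5%) lay downstream. Pool positions have few reads, and a tie in reads was settled by the lower position. A tied neighbour therefore counted as downstream on the plus strand and as upstream on the minus strand. For that reason the pool share cannot be set against that of the clones. Which way the transposon's own elements face follows from its map, which was not used here, so same strand means only that the deposited strand equals that of the gene.

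By strand of the gene and by autosome the plasmid shares were as follows. The share was 48.2% for genes on the plus strand and 48.5% for genes on the minus strand. Cross-classified, plus-strand sites fell in 2367 plus and 2473 minus genes, and minus-strand sites in 2541 plus and 2328 minus genes (odds ratio 0.877, Fisher's exact p = 0.00125). By autosome the share ran from 45.4% on chromosome 15 to 52.7% on chromosome 5 and was under 50% on 17 of 19. None of the 19 passed the exact binomial test (0% called, and none had an unadjusted p under 0.05). The same cross-classification of the remobilized sites gave 81 plus and 55 minus genes for plus-strand sites and 56 plus and 69 minus genes for minus-strand sites (odds ratio 1.81, Fisher's exact p = 0.0188).

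Read support was taken in 5 classes, whose shares were not compared with each other by a test. Among plasmid sites the share on the gene's strand was 49.0% at 1 read, 48.0% at 2, 48.2% at 3 to 4, 47.6% at 5 to 9 and 24 of 67 (35.8%, 24.5% to 48.5%) at 10 or more reads (exact binomial test, adjusted p = 0.0678). For remobilized sites it was 60.6%, 48.3%, 53.3% and 28 of 40 (70.0%, adjusted p = 0.0829 by the exact binomial test) in the first 4 of these classes, and 4 of 9 in the last. With sites of at least 2 reads the remobilized share was 55.3% (exact binomial test, adjusted p = 0.224). With 1 site for each host gene the remobilized share was 56.4% (exact binomial test, adjusted p = 0.0732).

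**Figure D1:**
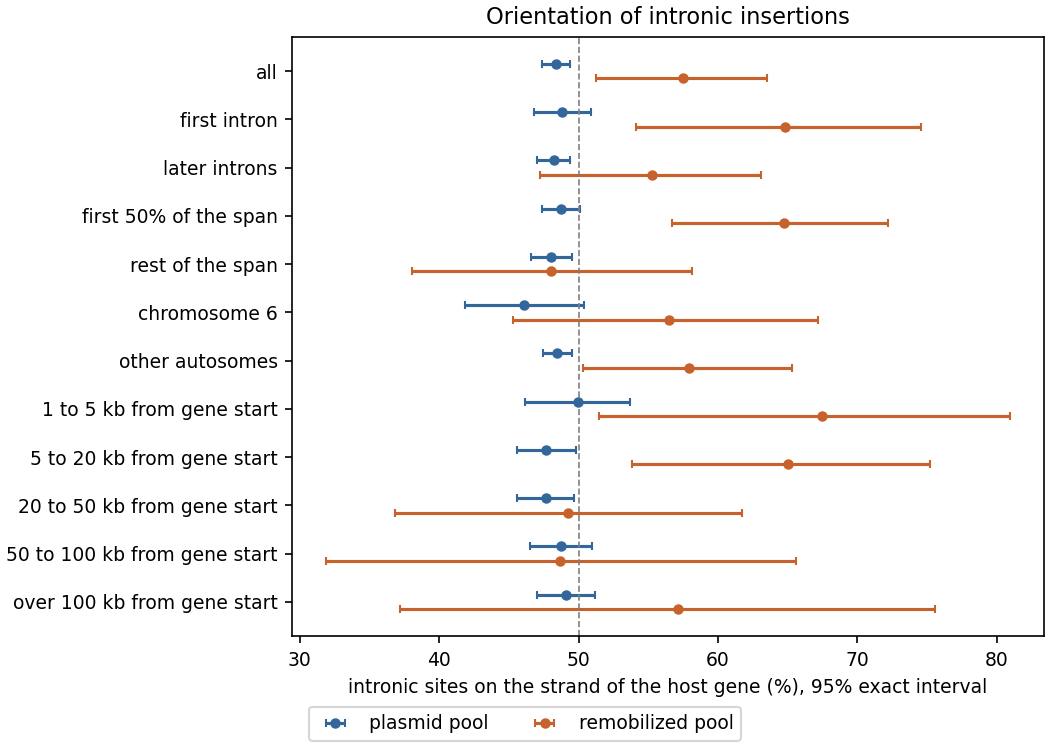
Share of intronic sites on the strand of the host gene (%, horizontal axis) in subsets of the sites, for the plasmid pool (blue) and the remobilized pool (orange), with bars for 95% exact intervals and a dashed line at 50%. The plasmid pool stays between 46.1% and 49.9% in every subset drawn, while the remobilized pool is at 64.7% in the first 50% of the gene span and at 48.0% in the rest.

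Remobilized sites near the start of the gene lay on its strand more often than sites farther in. In the first 50% of the gene span 101 of 156 sites were on the gene's strand, 64.7% (56.7% to 72.2%, adjusted exact binomial p = 0.000574), against 49 of 102, 48.0%, in the rest. The difference was 16.7 points (Fisher's exact p = 0.00979), a comparison added after the data were seen, and with at least 5 reads a site it was 21.4 points and did not pass (p = 0.193). By distance the shares were 29 of 43 (67.4%) at 1 to 5 kb from the start, 54 of 83 (65.1%, adjusted exact binomial p = 0.0402) at 5 to 20 kb, 49.3% at 20 to 50 kb, 48.6% at 50 to 100 kb and 57.1% beyond 100 kb. The median relative position, with 0 at the start and 1 at the end of the gene, was 0.333 for sites on the gene's strand and 0.498 for opposite sites.

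Along the span the plasmid shares lay close together, and whether the pools differ in this was not tested. The share was 48.7% in the first 50% of the span and 48.0% in the rest, and the median relative positions were 0.468 and 0.472. Between introns, 1150 of 2355 first-intron sites (48.8%) and 3335 of 6918 later ones (48.2%) were on the gene's strand, a difference of 0.625 points (Fisher's exact p = 0.616). The corresponding remobilized counts were 59 of 91 (64.8%) and 89 of 161 (55.3%), and their difference of 9.56 points did not pass (Fisher's exact p = 0.146, adjusted 0.243).

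The remobilized share on the gene's strand was close on and off chromosome 6. On it 48 of 85 remobilized sites (56.5%) lay on the gene's strand, and on the other autosomes 102 of 176 (58.0%, exact binomial p = 0.0830 when adjusted over these 2 sets of chromosomes), a difference of 1.48 points (Fisher's exact p = 0.894). Set against the plasmid pool, the difference was 9.47 points on the other autosomes (Fisher's exact p = 0.0147, adjusted over 5 comparisons 0.0733) and 10.3 points on chromosome 6 (p = 0.0806, adjusted 0.202). With chromosome 6 left out of the tests on all autosomes, both results still passed (remobilized share, exact binomial test, adjusted over the 2 pools, p = 0.0415; difference between pools, Fisher's exact p = 0.0147). The comparisons within chromosome 6 and between it and the other autosomes were added after the data were seen.

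Position along genes was set against the intron length in which a site could have met the rule, called eligible length. It came to 675.2 Mb in 12917 genes, and 9611 plasmid and 258 remobilized sites had a single host gene. The density was 14.2 sites per Mb in the plasmid pool and 0.382 per Mb in the remobilized pool.

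First introns held a larger share of the sites in the remobilized pool than in the plasmid pool. Of the plasmid sites, 2355 of 9273 were in first introns, 25.4% (24.5% to 26.3%), against 25.2% of the eligible length (exact binomial p = 0.599), which is 14.4 per Mb in first and 14.3 per Mb in later introns. With 1 site for each host gene the plasmid share was 27.0% and passed (exact binomial test, adjusted p = 0.00381). The expectation there still weights genes by intron length, while each hit gene counts once. That pass can therefore not be read as an excess in first introns. Of the remobilized sites, 91 of 252 were in first introns, 36.1% (30.2% to 42.4%, adjusted exact binomial p = 0.000223). Their density was 0.558 per Mb in first and 0.332 per Mb in later introns. The pools differed by 10.7 points (odds ratio 1.66, Fisher's exact p = 0.000240), and by 17.8 points with at least 5 reads a site (p = 0.00911). The genes actually hit have a mean first-intron share of 31.0%. Against each hit gene's own share the remobilized share did not pass (exact Poisson-binomial test, p = 0.0372, adjusted over the 2 pools 0.0722).

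The first 50% of the gene span held more sites of each pool than its length would give. The first 50% of the span held 5116 of 9611 plasmid sites, 53.2% (52.2% to 54.2%), and 156 of 258 remobilized sites, 60.5% (54.2% to 66.5%). It holds 51.7% of the eligible length (exact binomial tests, adjusted p = 0.00397 and 0.00498). With at least 5 reads a site the plasmid share was 54.2% and did not pass (exact binomial test, adjusted p = 0.206). Without genes overlapped on the other strand it was 52.2% (exact binomial test, adjusted p = 0.533), and with a margin of 5000 bp the remobilized share was 53.8% against 48.4% of the length (adjusted p = 0.127).

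The span was also divided into 10 equal parts, or deciles. The density of the plasmid pool went from 15.2 per Mb in decile 1 to 12.9 per Mb in decile 10, and that of the remobilized pool from 0.601 to 0.182 per Mb. None of the 10 deciles passed in the plasmid pool (0% called by the exact binomial test; 2 had an unadjusted p under 0.05). Among remobilized sites, decile 1 held 36 and decile 10 held 9, and none of the 10 deciles passed there either (0% called, adjusted exact binomial p = 0.0806 for both of these).

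**Figure D2:**
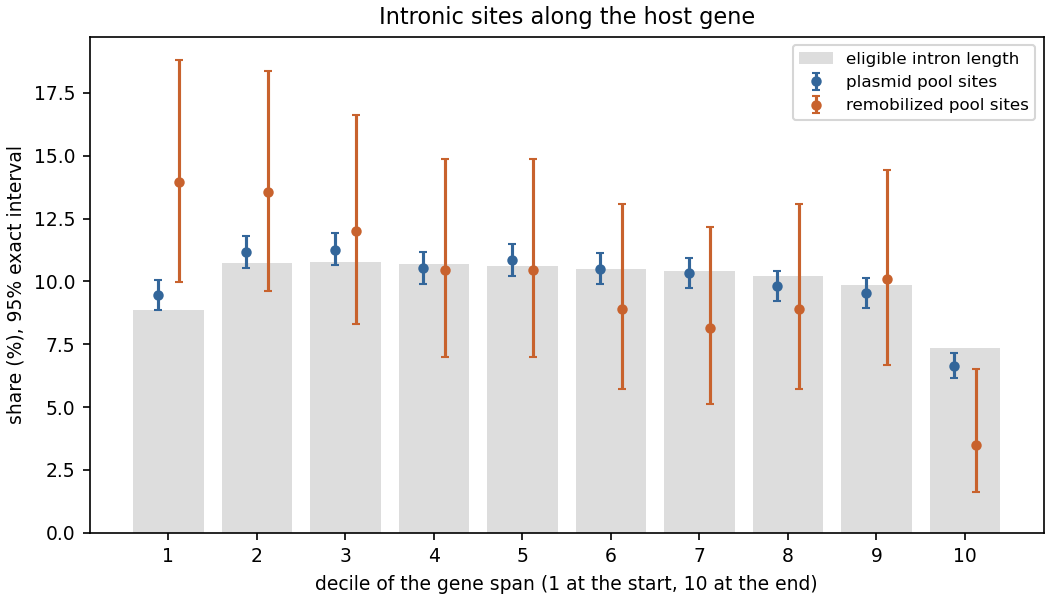
Share of intronic sites (%, vertical axis) in each decile of the host gene span, from start to end, for the plasmid pool (blue) and the remobilized pool (orange), with 95% exact intervals, over grey bars for the share of eligible intron length. The remobilized pool goes from 36 sites in decile 1 to 9 sites (3.49%) in decile 10, while the plasmid pool follows the bars within 1 point.

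The pools also differed in distance from the gene start in kb. The median distance was 42.3 kb in the plasmid pool and 20.9 kb in the remobilized pool. For the plasmid pool 3 of 5 distance classes passed the exact binomial test (60% called), and with at least 5 reads a site none did. The density was 15.7 per Mb at 1 to 5 kb (701 sites, adjusted exact p = 0.0119), 15.1 per Mb at 5 to 20 kb (2229 sites, adjusted p = 0.00266), 14.3 at 20 to 50 kb, 14.8 at 50 to 100 kb and 12.7 per Mb beyond 100 kb (2313 sites, adjusted p = 2.29e-10).

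Remobilized sites went the same way over a wider range, and 4 of 5 distance classes passed (80% called). The class from 1 to 5 kb held 43 sites, 16.7% of them against 6.61% of the length (0.964 per Mb, adjusted exact binomial p = 5.77e-08). Next came 83 sites at 5 to 20 kb (0.564 per Mb, adjusted exact p = 0.000186), 67 at 20 to 50 kb (0.407 per Mb) and 37 at 50 to 100 kb (0.271 per Mb, adjusted p = 0.0246). Beyond 100 kb there were 28 sites, 10.9% against 27.0% of the length (0.153 per Mb, adjusted exact p = 1.23e-09).

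Within 20 kb of the start lay 126 of 258 remobilized sites (48.8%) and 2930 of 9611 plasmid sites (30.5%), a difference of 18.4 points (odds ratio 2.18, Fisher's exact p = 1.28e-09, added after the data were seen). It was 9.52 points with 1 site for each host gene (Fisher's exact p = 0.00798) and 36.9 points with at least 5 reads a site (p = 4.18e-07). Without chromosome 6 the remobilized classes held 31, 59, 41, 25 and 19 of 175 sites, and the first, the second and the last still passed (adjusted exact binomial p = 1.36e-06, 0.000546 and 1.36e-06).

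The span of the host gene gave a related picture. Of 4 span classes, 2 passed in the plasmid pool (50% called; none with at least 5 reads a site): genes of 50 to 100 kb were at 15.4 sites per Mb (adjusted exact binomial p = 8.80e-05) and genes of 200 to 500 kb at 13.1 per Mb (adjusted p = 2.57e-07). Genes of 10 to 50 kb and of 100 to 200 kb were at 14.4 and 14.5 per Mb. All 4 span classes passed in the remobilized pool (100% called), whose density went down with each class of span, with 0.675 per Mb at 10 to 50 kb (104 sites, adjusted exact p = 9.93e-10), 0.511 at 50 to 100 kb (73 sites), 0.264 at 100 to 200 kb (45 sites) and 0.173 at 200 to 500 kb (36 sites, adjusted p = 9.93e-10).

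Genes under 50 kb held 40.3% of the remobilized and 23.2% of the plasmid sites, a difference of 17.1 points (odds ratio 2.24, Fisher's exact p = 1.67e-09, added after the data were seen). With 1 site for each host gene that difference was 3.66 points (Fisher's exact p = 0.306). This setting, used for the 20 kb comparison too, kept 4926 of 9611 plasmid but 209 of 258 remobilized sites. It removes repeat sites of a gene mainly from the plasmid pool, so the value is not a like-for-like check of the difference. With at least 5 reads a site the difference was 35.0 points (p = 4.53e-07, Fisher's exact test), and without chromosome 6 it was 17.3 points. Of the 4 remobilized span classes, 2 passed without chromosome 6, those of 10 to 50 kb and 200 to 500 kb (adjusted exact binomial p = 7.81e-07 and 4.55e-06), while those of 50 to 100 kb and 100 to 200 kb did not (adjusted p = 0.269 and 0.157). Distance and span are not independent, because short genes have no sequence far from their start.

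**Figure D3:**
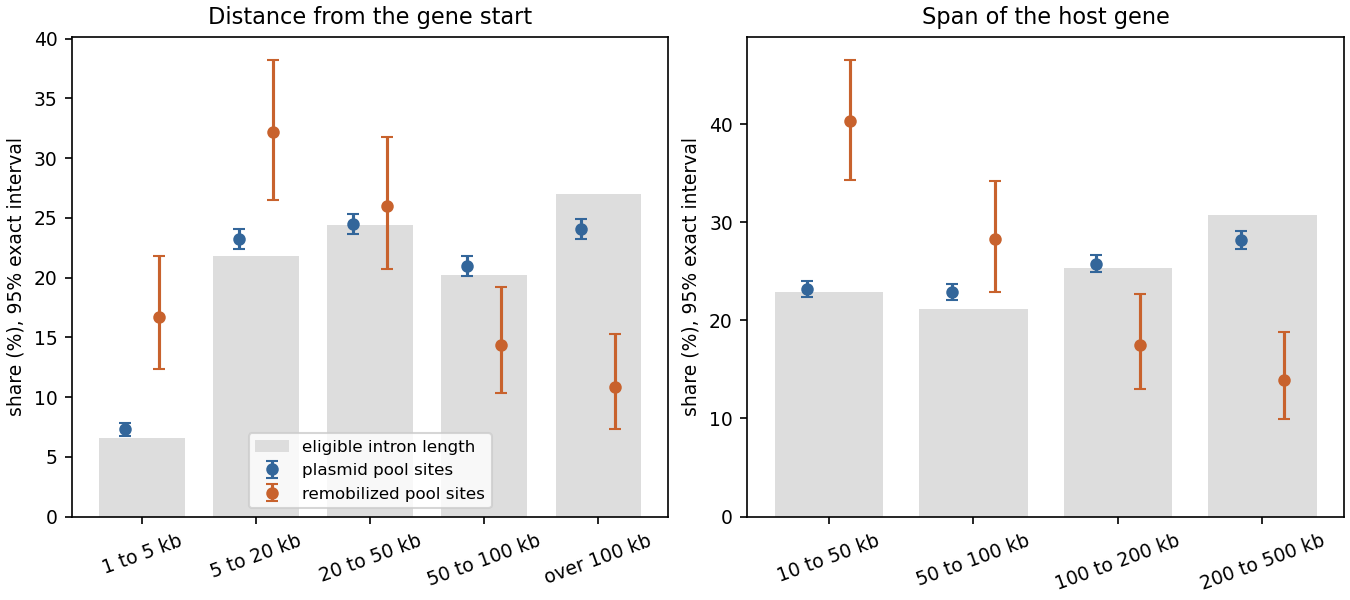
Share of intronic sites (%, vertical axes) by distance from the gene start (left) and by span of the host gene (right), for the plasmid pool (blue) and the remobilized pool (orange), with 95% exact intervals, over grey bars for the share of eligible intron length. The remobilized pool exceeds the bars at 1 to 5 kb (16.7% over 6.61%) and in genes of 10 to 50 kb (40.3% over 22.8%) and is below them beyond 100 kb and above 200 kb.

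Per gene, the plasmid pool spread widely. It hit 4926 of 12917 genes (38.1%), 2724 of them once, 1090 at 2 sites, 919 at 3 to 5 sites and 193 at 6 or more. The remobilized pool hit 209 genes (1.62%), 192 of them once. An exact binomial test set each gene's sites in the plasmid pool against its share of eligible length, adjusted over 12917 genes. It called 6 genes over their share (0.0465%) and none under it (0%), while 371 and 15 genes had an unadjusted p under 0.05. Few sites were expected even in the longest genes, such as 6.76 in Rims2 with 486.1 kb. A call under the share was therefore hardly possible.

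Sfi1, which encodes a centrin-binding protein of the centrosome, had 17 sites on chromosome 11 against 0.666 expected, 9 on its strand and 8 opposite, with 1 to 4 reads each (adjusted p = 1.93e-14 by the exact binomial test). Zfp980, a zinc finger gene on chromosome 4, had 8 sites against 0.398 expected, 4 in each orientation (adjusted exact p = 7.13e-05). Both belong to sequence families with near-identical copies, as may 4930467E23Rik, an uncharacterised gene with 5 sites against 0.297 (adjusted exact p = 0.0324). The share of their reads that belongs to other copies cannot be told from the files. Neighbouring sites were close in Zfp980, where a pair lay 16 bp apart on different strands.

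The other 3 genes called over their share are Cab39l, Tial1 and Nf1. Cab39l, a partner of the kinase LKB1, had 11 sites against 1.58 expected, 6 on its strand and 5 opposite (adjusted exact p = 0.00386). Of these, 3 sites with 1 read each lay on the same strand at a spacing of 82 bp in intron 1. Tial1, an RNA-binding protein of stress granules, had 5 sites against 0.208 expected, 1 on its strand and 4 opposite, with 2 to 5 reads each (adjusted exact p = 0.00885). Nf1, which encodes the Ras regulator neurofibromin, had 13 sites against 2.86 expected, 9 on its strand and 4 opposite, with up to 8 reads (adjusted exact p = 0.0250). When sites within 1000 bp were merged, the test called 2 genes, Sfi1 and Zfp980, and with at least 2 reads a site it called 2, Sfi1 and Tial1. With at least 5 reads it called none.

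The genes with the most sites in the plasmid pool were mostly long. Rims2, which encodes a protein of the presynaptic active zone, had 17 sites over 486.1 kb against 6.76 expected, and Grin2b, an NMDA receptor subunit, had 14 against 6.18. Patj, a polarity protein of tight junctions, and Adk, adenosine kinase, had 13 sites each against 4.39 and 5.50 expected. Klf12, a transcription factor, had 12 against 5.77, Faf1, a Fas-associated factor, 11 against 4.00, and Zcchc7, a zinc knuckle protein, 11 against 2.36. None of these 7 was called, and Zcchc7 came nearest (adjusted p = 0.0600 by the exact binomial test). Sites on the gene's strand and opposite numbered 10 and 7 in Rims2, 11 and 3 in Grin2b, 8 and 5 in Patj, and 7 and 4 in Zcchc7. They numbered 6 and 7 in Adk, 6 and 6 in Klf12, and 5 and 6 in Faf1.

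**Figure D4:**
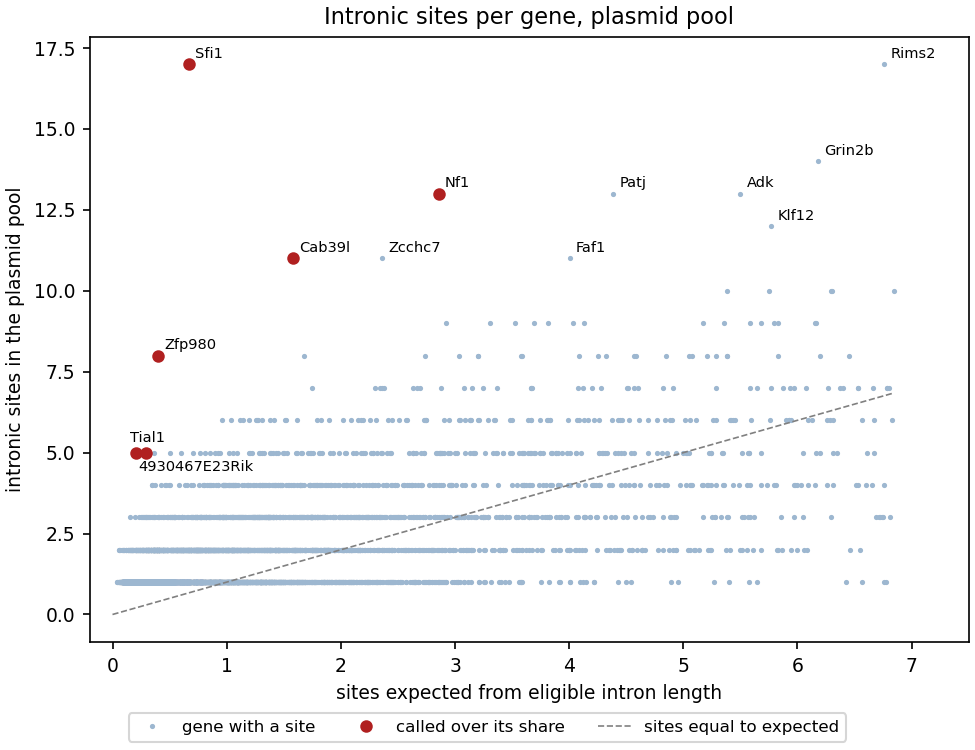
Intronic sites of the plasmid pool in each gene with a site (vertical axis) against the number expected from its eligible intron length (horizontal axis), with a dashed line where they are equal. Red points are the 6 genes called over their share, of which Sfi1 (17 sites against 0.666) stands farthest from the line, and names without a red point are the other genes with the most sites.

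In the remobilized pool 4 neighbouring genes on chromosome 6 had at least 3 sites, and together they held 40 of the chromosome's 85 intronic sites (47.1%). They lie within a stretch of 579.9 kb, from 51432670 to 52012549. Of the 40 sites, 25 were on the strand of the gene and 15 opposite, and 14 had 1 read. The plasmid pool, with far more sites, had none in Nfe2l3, Cbx3 and Snx10 (0.326, 0.103 and 0.808 expected) and 1 in Skap2 (2.04 expected).

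Snx10, on the plus strand at 51523901 to 51590679, had 18 sites with 54 reads in all. Of these, 12 sites with 45 reads lay in intron 1 and 6 in later introns, and 12 were on the gene's strand and 6 opposite. The sites with 13 and 9 reads stood out, 4.04 kb and 21.1 kb from the start, both on the gene's strand. No other site of the gene had more than 4 reads.

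Nfe2l3, which encodes a bZIP transcription factor and lies on the plus strand at 51432670 to 51458768, had 15 sites with 54 reads. Intron 1 held 5 sites with 8 reads, intron 2 held 8 sites with 35 reads and intron 3 held 2 sites with 11 reads. On the gene's strand lay 8 sites and opposite 7, and the opposite ones were mostly in the last part of the gene. The 3 best supported sites had 10, 10 and 8 reads, at 18.9, 24.5 and 23.2 kb from the start.

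Cbx3 had 3 sites, all in intron 2 and all on its strand, with 4, 22 and 3 reads at 2.68, 3.09 and 3.40 kb from its start. Skap2, an adaptor of Src family kinases on the minus strand, had 4 sites, 2 with 2 and 1 reads on its strand in intron 4 and 2 with 6 and 5 reads opposite in introns 6 and 9. The 3 Cbx3 sites faced 1 way within 718 bp of each other, while Snx10, Nfe2l3 and Skap2 had sites in both orientations.

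**Figure D5:**
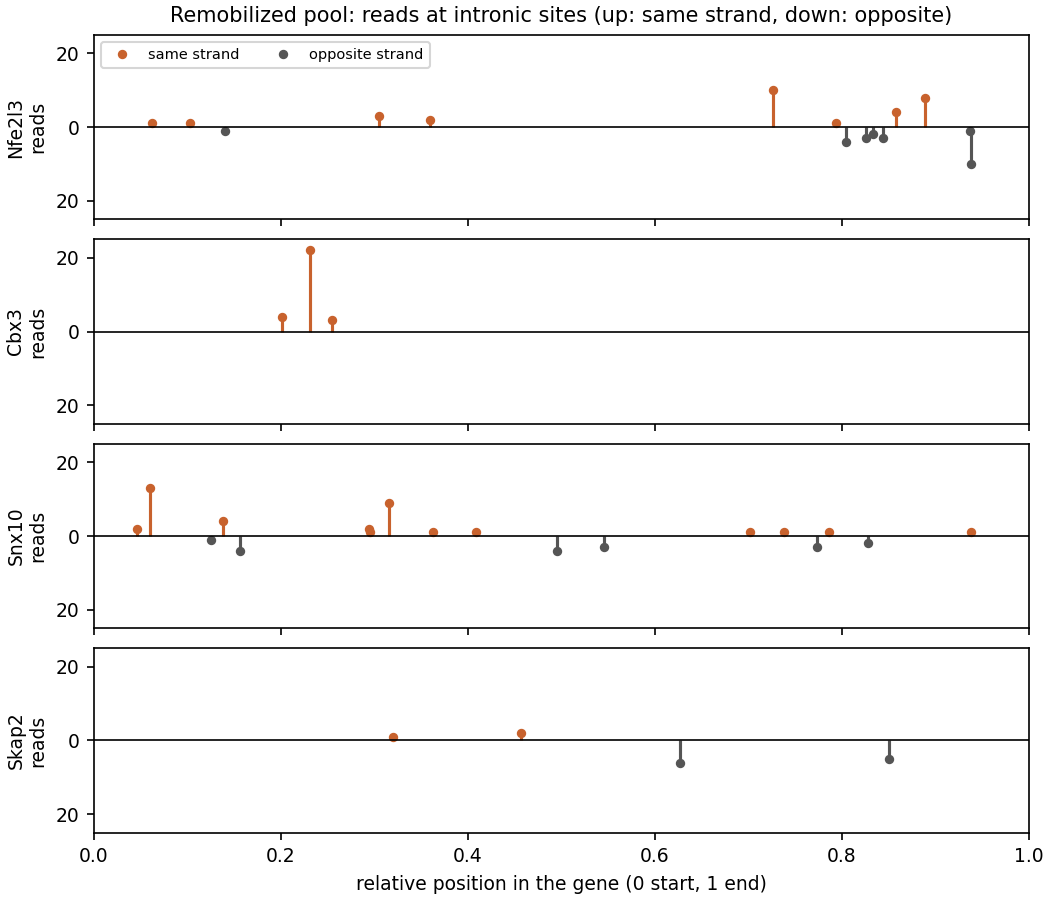
Reads at each intronic site of the remobilized pool in Nfe2l3, Cbx3, Snx10 and Skap2 (vertical axes, upward for the gene's strand and downward for the opposite strand) against the relative position in the gene (0 at its start, 1 at its end). Cbx3 has sites in 1 orientation only, with the highest at 22 reads, and the others have both.

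The pools shared 2 intronic sites within 10 bp. In intron 1 of Ppp3cb, a catalytic subunit of calcineurin, the remobilized pool had 5 reads at chr14:20535649 on the minus strand and the plasmid pool 1 read at chr14:20535648 on the plus strand. In intron 5 of Ccnt1, which encodes cyclin T1, both had the same base and strand, chr15:98552349, with 1 remobilized and 2 plasmid reads.

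Named gene groups were read by counts, without a test of the group. Genes that met the span rule with eligible length numbered 14 of 15, 20 of 25, 26 of 27, 21 of 23 and 14 of 32 in the lists described below, in that order. No gene of these lists was called over or under its share, and a call under it was hardly possible at the numbers expected. Over all 12917 genes the plasmid pool had 14.2 sites per Mb, a median ratio of observed to expected sites of 0 and 48.4% of sites on the gene's strand.

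Genes of cohesin and its partners, the machinery that extrudes chromatin loops, had 26 sites against 14.4 expected (25.7 per Mb). Sites fell in 9 of 14 genes, with 10 on the gene's strand and 16 opposite (38.5%, 20.2% to 59.4%), and their median ratio was 1.73. Stag1, a core subunit, had 6 sites against 4.84 expected, all opposite to the gene. Nipbl, the loader, had 4 against 2.05, 1 on its strand and 3 opposite, and Smc1b, the meiotic subunit, had 4 against 0.882, 2 in each orientation. Esco1, an acetyltransferase of cohesin, had 3 sites against 0.542, all on its strand, and Pds5b, a regulator of cohesin, had 3 against 1.77, of which 2 were on its strand. The remobilized pool had no site in these genes.

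Pluripotency and embryonic stem cell factors had 14 sites against 13.2 expected, in 6 of 20 genes, 9 on the gene's strand and 5 opposite, and a median ratio of 0. Nr5a2, a nuclear receptor, had 4 sites, all opposite, while Tcf7l1, a repressor in the Wnt pathway, had 4 and Esrrb, an orphan nuclear receptor, had 3, all on the gene's strand. The remobilized pool had 1 site each in Tcf7l1, in Dnmt3l, a cofactor of DNA methylation, and in Tet1, a methylcytosine dioxygenase, all 3 on the gene's strand.

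Chromatin and DNA modifiers had 30 sites against 32.4 expected in 13 of 26 genes, 13 on the gene's strand and 17 opposite, and a median ratio of 0.207. The acetyltransferase gene Crebbp had 5 sites, 1 on its strand and 4 opposite, and the methyltransferase gene Kmt2c had 5, 2 and 3. Genes of transcription elongation and splicing had 8 sites against 9.10 expected in 5 of 21 genes, 4 in each orientation, and a median ratio of 0. The remobilized pool had no site in the first of these groups and 1, in Ccnt1, in the other.

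Synaptic receptor and neuronal adhesion genes, 13 of 14 of them hit, had 63 sites against 65.1 expected, and 46 of these lay on the gene's strand (73.0%, 60.3% to 83.4%). Their median ratio was 0.537. Grin2a, an NMDA receptor subunit, had 8 sites, all on its strand. Gria4 and Gria2, AMPA receptor subunits, had 7 of 8 and 5 of 5 on their strand. Cntn3 and Cntn6, contactin adhesion genes, went the other way with 4 of 9 and 0 of 3. The remobilized pool had 1 site in the group, in Gria1, opposite to the gene. The share was read from a list among 5 after its value was known.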

How the data were processed

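Sites were mapped in 12 libraries. The authors deposited, for each, positions with a strand and a whole-number read count, with no normalization stated. Per the submitters' processing notes, FastQC, BWA and deepTools were used with build mm10; their versions, filters and treatment of duplicates are not given in the sources used here. Whether 1 count is 1 read or 1 mate is not stated. Reads without a position took no part.

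Positions within 10 bp were merged and annotated with GENCODE M21 (Python 3.11.15, pandas 2.3.3, SciPy 1.17.1). Introns came from 1 transcript a gene, the protein-coding one with the longest span. Tests were two-sided exact binomial tests against 50% or the share of eligible length, and Fisher's exact tests, with Benjamini-Hochberg adjustment within each family and a threshold of 0.05. Intervals are 95% exact Clopper-Pearson intervals and cover counting error only. The binomial tests and the gene calls were run on simulated independent sites, at about the number of the plasmid pool. The Fisher's exact tests and a pool as small as the remobilized one were not simulated.

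Named genes were the 10 with the most plasmid-pool sites, those with at least 3 remobilized sites, hosts of the 5 best supported sites of each pool (1 of these is not reported here), genes called over their share, hosts of sites in both pools, hosts of each clone's best site, and up to 4 members of 5 gene lists. Genes named beyond this were chosen after their values were seen. Members and lists were chosen with earlier results of these data known. Alternatives were read minimums, merging distances, margins, other transcripts or exons, 1 site per gene, and leaving out chromosome 6 or overlapped genes.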

Additional observations from a re-analysis of the deposited data

Results flagged for a closer look

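The pools differed in 4 measures of their intronic sites, each by Fisher's exact test on sites of 1 library a pool. The share on the strand of the host gene was higher in the remobilized pool by 9.11 percentage points. The share in first introns was higher by 10.7 points, the share within 20 kb of the gene start by 18.4 points, and the share in genes under 50 kb by 17.1 points. The last 2 comparisons were added after the data were seen. The measures of first intron, distance and span are not independent of each other. Against the first-intron shares of the genes hit, the remobilized first-intron share did not pass (exact Poisson-binomial test, adjusted p = 0.0722). The strand difference did not pass with at least 2 reads a site (7.44 points, Fisher's exact p = 0.0836). The difference in genes under 50 kb did not pass with 1 site per host gene (3.66 points, Fisher's exact p = 0.306). That setting kept 4926 of 9611 plasmid but 209 of 258 remobilized sites, so it does not treat the pools alike.

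The clones, whose sites enter no comparison of intronic position or orientation above, held 19 sites that meet the same rule, among 57 sites in all, while the control without transposons had no site. These 19 lay in 5 of the 9 clones, 13 on the strand of the gene and 6 opposite. At least 10 reads were found at 5 of them, and 4 of them were their clone's best supported site.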

How the results depend on the processing

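No paired analysis was possible because every group is a single library. Of 145 alternative values, 117 kept their direction and their side of the threshold or, for a count of calls, stayed within 1.5 times the main count; the cause of the other changes was not tested. With at least 5 reads a site, the share on the gene's strand was 46.3% (plasmid pool) and 65.3% (remobilized pool), neither passing; the plasmid first-intron share was 23.9%, under the expected 25.2%; its first-50% share was 54.2%, not passing; its orientation difference between introns was -1.98 points; no distance class, no span class (0 each) and no gene (0) was called; and the remobilized orientation difference along the span was 21.4 points, not passing. With at least 10 reads the shares on the gene's strand were 35.8% and 44.4%, differing by 8.62 points, none passing and the second below 50%. With at least 2 reads they gave 55.3% in the remobilized pool and a difference of 7.44 points, neither passing, and 2 genes were called, as with merging at 1000 bp (2).

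With 1 site per host gene, the remobilized share on the gene's strand was 56.4% (57.2% also without chromosome 6), not passing. The plasmid first-intron share was 27.0%, now passing, though against an expectation that weights genes by length while each hit gene counted once. The orientation difference between introns was -1.06 points. The difference in genes under 50 kb was 3.66 points, in a setting that removes a larger part of the plasmid than of the remobilized sites. With a margin of 5000 bp, the plasmid first-intron share was 21.7% against 22.0%, the remobilized first-50% share 53.8%, and the difference in intronic share -1.70 points. Without overlapped genes the plasmid first-50% share was 52.2%, its orientation difference between introns -0.190 points, and the difference in intronic share 4.91 points, now passing. Against the genes hit, the remobilized first-intron share of 36.1% did not pass. Alternatives for the 20 kb and 50 kb comparisons, for orientation along the span, and 1 site per gene combined with leaving out chromosome 6 were chosen after seeing the data. Precision was limited by the 261 sites of the remobilized pool and by sites with 1 read.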

Other observations

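The well supported intronic sites of the clones lay in 5 genes. The 134kb clone had 1793 reads in intron 2 of Nfe2l3 at chr6:51451618, on the gene's strand, a base at which the remobilized pool had 10 reads. The 260kb clone had 1104 reads in intron 3 of Snx10 at chr6:51576422, on the gene's strand, where the remobilized pool had 1 read, and 150 reads in intron 1 of the septin gene Sept10 at chr10:59207313, where it had none. The 20kb clone had 568 reads in intron 3 of H2afv, which encodes a histone H2A.Z, at chr11:6430192 on the gene's strand, and the 73Mb clone had 442 reads in intron 1 of Cd4, the T cell coreceptor, at chr6:124883210 opposite to the gene. Both were also found in the remobilized pool, with 1 read each, so that 4 of these 5 sites recur there. The other 14 intronic sites of the clones had 1 or 2 reads.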
